A study of Mus musculus with 13 samples.

Results

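The genes described here are 10 that code for subunits of the transcription factor AP-1 or for other immediate early proteins: the Fos family (Fos, Fosb, Fosl1, Fosl2), the Jun family (Jun, Junb, Jund), Atf3, Egr1 and Ier2. They were taken by symbol from a table of 21100 genes, and were chosen with earlier results of these data known. All 10 had a value in every tumor, and all 10 were among the 14390 genes with enough counts to be tested.

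Poly(A) RNA of 13 female mouse tumors was sequenced, 1 library per tumor, to compare a transplantable model of basal cell carcinoma (BCC) with the model it came from. The 9 GEM-BCC tumors (genetically engineered mouse BCC) grew in the dermis of 7 Ptch1+/- K14-CreER2 p53fl/fl mice after 3 injections of 300 µg tamoxifen and a single X-ray dose of 4 Gy. This strain name is spelled as in the labels, and the authors' methods write CreERT2. The K14 promoter drives the Cre recombinase in basal keratinocytes, and GEM2 shared a mouse with GEM3, and GEM7 with GEM8. The 4 Tp-BCC tumors (TP1 to TP4) grew under the flank skin of 4 Ptch1+/-p53fl/fl mice that each received 2000000 cells, and all of them descend from 1 GEM-BCC tumor, so they are repeats of 1 line. Both models thus share the Ptch1 and p53 alleles, but only the GEM-BCC hosts carried the Cre and were given tamoxifen and X-rays.

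AP-1 is a dimer of a Jun protein with a Fos, Jun or ATF protein, held together by a leucine zipper, and it binds short DNA elements in promoters and enhancers. Immediate early genes such as Fos, Egr1 and Ier2 are transcribed within minutes of growth factor signaling, wounding or stress, without need for new protein. In skin, AP-1 is known for its part in keratinocyte differentiation, wound repair and tumor growth. The same genes are also known to respond when tissue is excised and cut. All tumors were cut into pieces and kept in RNAlater. The time from excision to RNAlater is not given in the sources used here, and its part in any value below was not tested.

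Libraries differed in a trend of level with GC content, described below, so a stretch of coding sequence is shown for 3 GC-rich and 2 other members. Each is the 90 coding bases within 1 exon whose GC content lies nearest that of the transcript, taken from GENCODE transcripts of GRCm38, with every G and C in capitals. In order, they lie at chr8:84662624-84662713 (minus strand), chr8:84978298-84978387 (minus), chr8:70699187-70699276 (plus), chr12:85475864-85475953 (plus) and chr1:191177346-191177435 (minus).
Ier2: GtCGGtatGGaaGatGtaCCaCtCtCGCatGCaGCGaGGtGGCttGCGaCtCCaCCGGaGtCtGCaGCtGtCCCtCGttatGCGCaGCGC
Junb: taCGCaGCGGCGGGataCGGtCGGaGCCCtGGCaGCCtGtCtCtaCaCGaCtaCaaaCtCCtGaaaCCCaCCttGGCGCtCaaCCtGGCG
Jund: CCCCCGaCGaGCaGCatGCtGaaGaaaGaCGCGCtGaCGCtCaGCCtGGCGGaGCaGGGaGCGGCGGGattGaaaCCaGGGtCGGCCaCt
Fos: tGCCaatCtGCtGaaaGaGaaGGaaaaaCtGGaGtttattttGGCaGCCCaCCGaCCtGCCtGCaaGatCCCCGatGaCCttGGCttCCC
Atf3: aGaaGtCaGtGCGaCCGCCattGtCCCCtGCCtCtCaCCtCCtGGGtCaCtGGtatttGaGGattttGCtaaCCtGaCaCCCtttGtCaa
The stretches hold 61.1%, 62.2%, 66.7%, 52.2% and 52.2% G and C. Over whole transcripts, Jund had a GC content of 67.1%, Junb of 62.6%, Fosl1 of 62.2% and Ier2 of 60.9%, against a median of 51.3% over tested genes. Jund stood at the 99.9th percentile of tested genes, Junb at the 98.4th and Ier2 at the 96.3th. Fos (51.9%) and Atf3 (51.2%) lay near the median. Jun, Junb, Jund and Ier2 are each annotated as a single exon, whereas the coding transcripts of the other members have 3 or more exons, except that 1 form of Egr1 has 2.

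Depth was 28075317 to 32629102 expected counts per GEM-BCC tumor and lower, 15388027 to 17494912, in Tp-BCC. The labels give GEM-BCC tumors 1 batch number and Tp-BCC tumors a different one, so batch and model cannot be told apart in any difference between models. Libraries also differed in their GC trend, measured as the Spearman correlation across genes between transcript GC content and the departure of a tumor's log2 CPM from the average of that gene. This rho was 0.59 in TP2 and TP4, 0.37 in GEM1, -0.39 in TP1 and -0.47 in TP3, and between -0.31 and -0.15 in the other 8 GEM-BCC tumors. Trp53, which codes for p53, had 29.9 to 61.7 CPM in GEM-BCC and 19.8 to 30.4 CPM in Tp-BCC tumors, and Ptch1 had 157.9 to 461.8 and 61.0 to 186.7 CPM. Of 12 markers of basal keratinocytes and BCC, among them Krt5 and Krt14, none was at 0 in every tumor, and their summed level was 13333 to 19734 CPM in GEM-BCC and 10152 to 22938 CPM in Tp-BCC tumors. Among the 12, Krt15 was lower in Tp-BCC tumors (log2 fold change -4.03, adjusted p = 0.000208, edgeR) and Gli2 higher (1.28, adjusted p = 0.00313, edgeR), and 10 did not pass. Of all tested genes 8.35% were lower and 11.1% higher. With the GC trend removed as described below, Krt14 was also lower (-1.03, adjusted p = 0.0145, edgeR) and Hhip higher (1.43, adjusted p = 0.0130, edgeR).

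Of the 10 genes, 1 differed between models at an adjusted p-value under 0.05 (edgeR quasi-likelihood F test), which was Ier2, higher in Tp-BCC tumors. Over all tested genes 19.4% passed, 11.1% higher and 8.35% lower in Tp-BCC tumors, and with 10 members the shares are not read as different. None of the 10 also had an absolute log2 fold change above 2, with edgeR or with DESeq2, against 5.57% of all genes with edgeR (5.91% with the GC trend described below removed, where again none of the 10 did). At an unadjusted p-value under 0.05 there were 2, Ier2 and Atf3. The median log2 fold change, Tp-BCC over GEM-BCC, was -0.21 over the members and -0.03 over all tested genes. No member had log2 CPM that did not overlap between models, against 9.95% of all genes (5.5% with Tp-BCC higher). In bulk tumors, fewer cells of a type and less RNA per cell cannot be told apart.

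**Figure D1:**
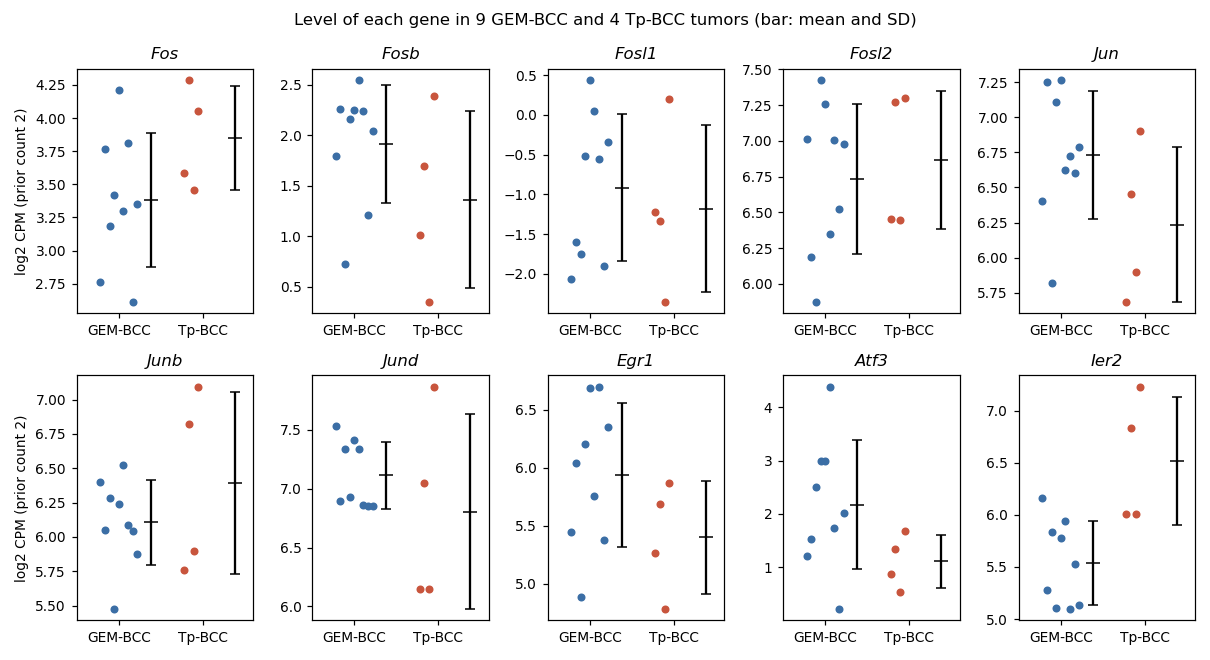
Log2 CPM (prior count 2) of each of the 10 genes in the 9 GEM-BCC tumors (blue) and the 4 Tp-BCC tumors (red), 1 point per tumor, with the mean and SD of each model as a bar. Each panel has its own axis, which does not start at 0. In all 10 panels the models overlap, and for Ier2 the overlap comes from 1 GEM-BCC tumor.

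The Fos family was led by Fosl2 in both models. Fosl2 codes for Fra-2, a Fos protein that lacks the strong activation domain of c-Fos. It ranged from 58.5 CPM in GEM3 through a median of 126.3 to 172 CPM in GEM4. Among Tp-BCC tumors it was 87.5 in TP1, 154.8 in TP2, 87.3 in TP3 and 157.2 CPM in TP4. The Tp-BCC values lay inside the GEM-BCC range, and the log2 fold change was 0.11 ± 0.29 (SE, adjusted p = 0.811, edgeR). On the scale of CPM per kilobase of transcript, which allows genes to be compared, Fosl2 made up 58.3% to 82.2% of the summed Fos family among GEM-BCC and 67.2% to 70.4% among Tp-BCC tumors.

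Fos itself, the gene of c-Fos, came next. It ranged from 6.03 CPM in GEM8 through a median of 10.1 to 18.5 CPM in GEM5. In Tp-BCC tumors it was 12.0 in TP1, 19.5 in TP2, 10.9 in TP3 and 16.6 CPM in TP4. All 4 Tp-BCC tumors were above the GEM-BCC median, but only TP2 was above GEM5. Between models, Fos differed by 0.43 ± 0.29 on the log2 scale (SE, adjusted p = 0.315, edgeR). Per kilobase, Fos accounted for 13.2% to 33.6% of the family among GEM-BCC and 22.9% to 28.5% among Tp-BCC tumors.

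Fosb and Fosl1, whose products FosB and Fra-1 also need a Jun partner, were low. Fosb ranged from 1.58 CPM in GEM3 through a median of 4.38 to 5.77 CPM in GEM6. It was 1.94 in TP1, 3.15 in TP2, 1.20 in TP3 and 5.14 CPM in TP4. TP3 was the lowest of the 13 tumors and TP4 lay among the higher GEM-BCC tumors. Its log2 fold change was -0.47 ± 0.42 (SE, adjusted p = 0.451, edgeR). Fosl1 had at most 45 counts in a tumor and 2 in TP3, so its log2 fold change of -0.28 ± 0.66 (SE, adjusted p = 0.795, edgeR) had the largest SE of the 10.

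In the Jun family the most abundant gene per kilobase was Jund, whose product JunD is known as the more steadily expressed Jun protein. Jund ranged from 115.6 CPM in GEM9 through a median of 121.8 to 184.6 CPM in GEM1. It was 70.8 in TP1, 132.5 in TP2, 71.0 in TP3 and 233 CPM in TP4. The Tp-BCC tumors thus lay on both sides of the GEM-BCC range, TP1 and TP3 below it and TP4 above it. The log2 fold change was -0.15 ± 0.29 (SE, adjusted p = 0.744, edgeR). Per kilobase, Jund made up 45.7% to 61.6% of the Jun family among GEM-BCC and 45.2% to 55.3% among Tp-BCC tumors.

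Jun codes for c-Jun, the main partner of c-Fos. It ranged from 56.3 CPM in GEM3 through a median of 105.7 to 154 CPM in GEM5. In Tp-BCC tumors it was 51.4 in TP1, 87.8 in TP2, 59.4 in TP3 and 119.6 CPM in TP4. TP4 alone was above the GEM-BCC median, and TP1 was the lowest of the 13 tumors. For Jun the log2 fold change was -0.48 ± 0.28 (SE, adjusted p = 0.244, edgeR).

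Junb, whose product JunB can oppose c-Jun at some promoters, ranged from 44.4 CPM in GEM4 through a median of 68.0 to 91.8 CPM in GEM6. It was 54.2 in TP1, 112.8 in TP2, 59.6 in TP3 and 136.6 CPM in TP4. TP2 and TP4 were above every GEM-BCC tumor, while TP1 and TP3 were below the GEM-BCC median. Its log2 fold change was 0.37 ± 0.25 (SE, adjusted p = 0.314, edgeR). As a share of the Jun family per kilobase, Junb took 17.4% to 28.4% among GEM-BCC and 29.9% to 36.8% among Tp-BCC tumors, ranges that did not overlap. The shares of the other 6 Fos and Jun genes did overlap. No test was made on shares, and the GC trend was not removed from them.

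Atf3 codes for an ATF protein that is induced by many kinds of stress and can pair with Jun proteins. Its level varied more than that of any other member among GEM-BCC tumors, from 1.09 CPM in GEM8 through a median of 3.98 to 20.9 CPM in GEM6. It was 1.77 in TP1, 2.44 in TP2, 1.38 in TP3 and 3.14 CPM in TP4. All 4 Tp-BCC tumors were below the GEM-BCC median and above GEM8. The log2 fold change was -1.50 ± 0.65 (SE, adjusted p = 0.117, edgeR), with an adjusted p of 0.0426 in DESeq2. Without GEM6 the log2 fold change was -0.99 in edgeR.

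Egr1 is a zinc finger transcription factor outside AP-1 that is induced by the same growth factor signals as Fos. It ranged from 29.6 CPM in GEM3 through a median of 65.9 to 103.9 CPM in GEM7. It was 38.3 in TP1, 51.4 in TP2, 27.5 in TP3 and 58.5 CPM in TP4. All 4 Tp-BCC values were below the GEM-BCC median, and TP3 was the lowest of the 13 tumors. Egr1 had a fitted log2 fold change of -0.59 ± 0.33 (SE, adjusted p = 0.214, edgeR).

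Ier2, a small nuclear protein of the immediate early response, was the gene that passed. It ranged from 34.1 CPM in GEM7 through a median of 46.2 to 71.5 CPM in GEM1, a mean of 48.1 ± 13.7 CPM (SD, n = 9). It was 64.2 in TP1, 113.9 in TP2, 64.1 in TP3 and 150.1 CPM in TP4, a mean of 98.1 ± 41.9 CPM (SD, n = 4). Every Tp-BCC tumor was above 8 of the 9 GEM-BCC tumors, and GEM1, the GEM-BCC library with the positive GC trend, was above TP1 and TP3. The log2 fold change was 1.03 ± 0.27 (SE, adjusted p = 0.0144, edgeR). The call was lost without TP2 (log2 fold change 0.91, adjusted p = 0.0631) and without TP4 (0.69, adjusted p = 0.0890), and without both of these the log2 fold change was 0.41 (adjusted p = 0.353, edgeR).

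Both TP2 and TP4 were higher than both TP1 and TP3 for 9 of the 10 members, the exception being Fosl1, for which TP2 (5 counts) was below TP1 (6 counts). The same order held for 43.6% of all tested genes, and these 4 tumors were split after their GC trends had been seen, so the count is a description. The difference between the means of these pairs of tumors was smallest for Fos, 0.65 on the log2 CPM scale, and largest for Fosb (1.36) and Jund (1.31). TP2 and TP4 are also the libraries in which GC-rich genes were high. When each tumor's smooth trend of log2 CPM with transcript GC content was removed, the same difference fell from 1.03 to 0.10 for Ier2, from 1.13 to 0.19 for Junb, from 1.31 to 0.34 for Jund and from 0.75 to 0.07 for Egr1. It stayed at 0.52 for Fos and 0.82 for Atf3, whose GC content lies near the median, and it was 0.63 for Fosb and 0.47 for Fosl2. Fosb, at the 76.5th GC percentile, is richer in GC than Egr1, at the 73.8th. The GC trend is a property of the library, and whether it arose in the tissue or at the bench was not tested.

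**Figure D2:**
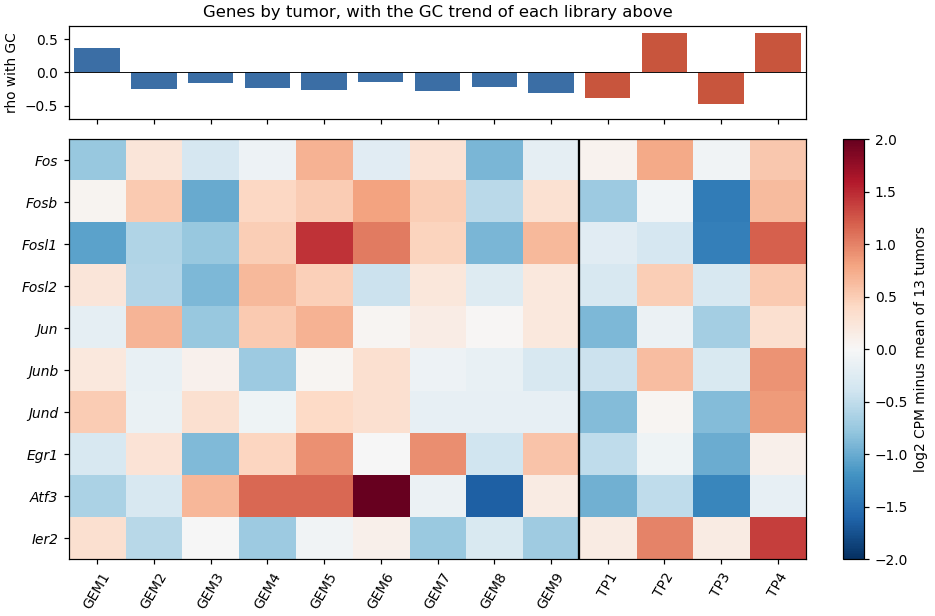
Log2 CPM of the 10 genes (rows) in the 13 tumors (columns), each minus the gene's mean over the 13 tumors, from blue (low) to red (high), with a color scale that ends at 2 log2 units either way. The bars above give each library's GC trend as Spearman rho, and TP2 and TP4, with a rho of 0.59, have higher values than TP1 and TP3 in every row but that of Fosl1, where TP2 is below TP1.

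With the GC trend removed, 3 of the 10 genes passed an adjusted p of 0.05 (edgeR), against 28.3% of all tested genes. Ier2 was higher in Tp-BCC tumors, at 0.67 ± 0.17 in log2 fold change (SE, adjusted p = 0.00888, edgeR), where 15.1% of all genes were higher. On this scale its log2 CPM was 5.23 to 6.0 among GEM-BCC and 6.27 to 6.41 among Tp-BCC tumors, which did not overlap, as was so for 15.4% of all genes, 8.49% with Tp-BCC higher and 6.86% lower. It was the sole member whose models did not overlap. Without TP2 or TP4, each in turn, Ier2 still passed on this scale (adjusted p = 0.0270 and 0.0284, edgeR).

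Jun and Jund were lower in Tp-BCC tumors with the GC trend removed, as were 13.3% of all genes. Jun was at -0.78 ± 0.25 (SE, adjusted p = 0.0315, edgeR) and Jund at -0.47 ± 0.16 (SE, adjusted p = 0.0359, edgeR). These 2 calls were lost without TP1, TP2 or TP3, each in turn. Egr1 was at -0.88 ± 0.32 (SE, adjusted p = 0.0542, edgeR) and passed without GEM1 (-0.96, adjusted p = 0.0342, edgeR). For Junb the log2 fold change was 0.013 ± 0.15 (SE, adjusted p = 0.958, edgeR) in place of 0.37. The median over the members was -0.61 on this scale, and -0.02 over all genes.

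**Figure D3:**
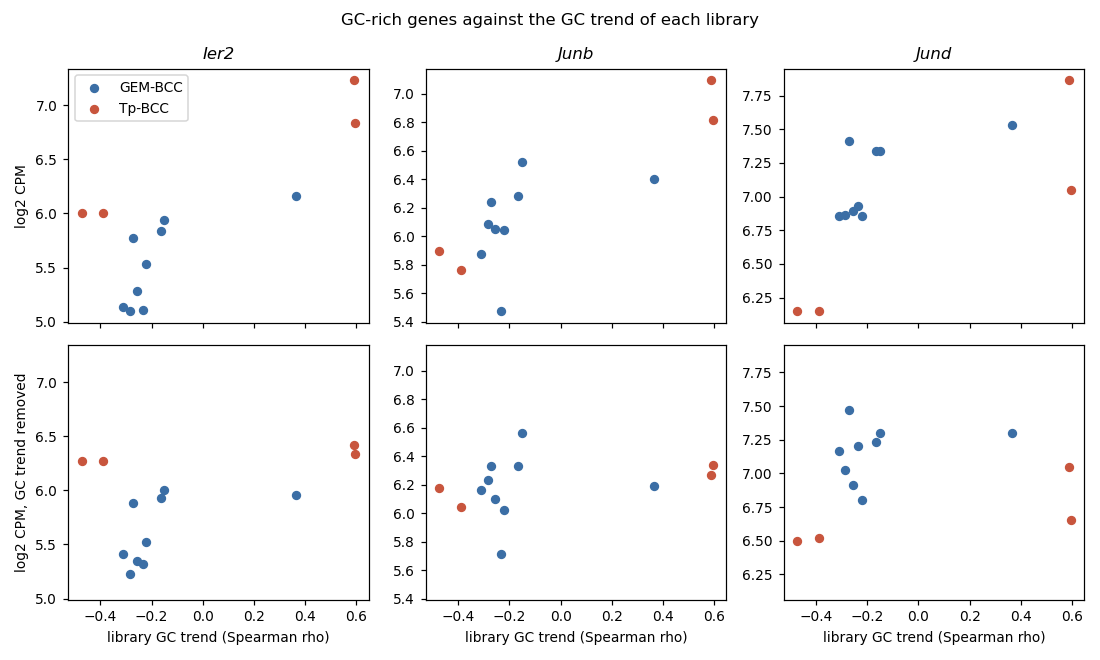
Log2 CPM of Ier2, Junb and Jund (columns) against the GC trend of each library, as deposited (upper row) and with the GC trend removed (lower row), for GEM-BCC (blue) and Tp-BCC tumors (red), 1 point per tumor, with the axis of each gene shared by both rows and not starting at 0. In the lower row the 4 Tp-BCC values of Ier2 lie close together, between 6.27 and 6.41, above all GEM-BCC values.

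**Figure D4:**
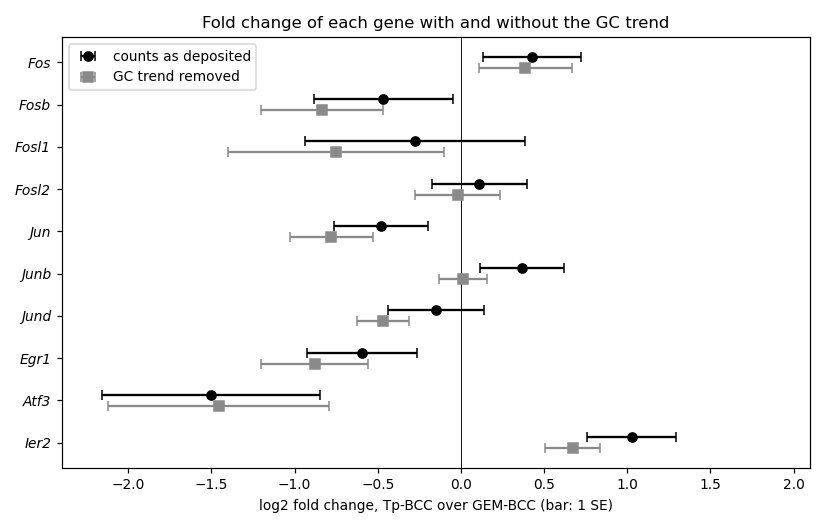
Log2 fold change of each gene, Tp-BCC over GEM-BCC, with its SE as a bar, from the counts as deposited (black circles) and with the GC trend removed (gray squares). Ier2 is the one gene above 0 by more than 2 SE on both scales. Atf3 is the one gene below 0 by more than 2 SE on both, but it did not pass (adjusted p = 0.117 and 0.111, edgeR). Fos and Atf3 move least between the scales.

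Among tumors of a model, the SD of log2 CPM had a median of 0.52 over the members in GEM-BCC, against 0.44 over all tested genes. In Tp-BCC it was 0.58 over the members and 0.58 over all genes. After removal of the GC trend these were 0.53 against 0.41 in GEM-BCC and 0.27 against 0.36 in Tp-BCC. In GEM-BCC, Atf3 had an SD of 1.21 and Jund, the steadiest, of 0.28.

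Tumors of the same mouse could differ nearly as much as tumors of different mice. GEM2 had 152.6 CPM of Jun and GEM3, from the same mouse, 56.3 CPM, a difference of 1.44 on the log2 CPM scale that is 99.1% of the range over the 9 GEM-BCC tumors. Fosb differed by 1.53 and Egr1 by 1.15 in the same direction, where the median absolute difference over all genes was 0.49. Ier2 differed the other way, being 0.56 lower in GEM2, as did Atf3 (0.98 lower), Jund (0.45 lower) and Junb (0.23 lower). In the other mouse, GEM7 was above GEM8 by 1.20 for Fos, 1.32 for Egr1, 1.03 for Fosb and 1.52 for Atf3, where all genes had a median absolute difference of 0.32. Jund and Junb differed between GEM7 and GEM8 by 0.0053 and 0.044, and Ier2 was again lower, by 0.43, in the tumor with more Fos and Egr1. These are differences between single libraries with no replicate check.

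Across the 7 GEM-BCC mice, all of 1 batch, Fos was compared with each of the other 9 members. The highest correlation was with Jun, with a Pearson r of 0.82 (exact permutation p = 0.0139, adjusted over 9 relations 0.125) and a Spearman rho of 0.61 (exact permutation p = 0.167, adjusted 0.796). Without the 2 mice farthest from the median of Fos, r was 0.19. Leaving out the most extreme mice narrows the range of Fos and can itself lower r. Whether the relation rests on those mice therefore cannot be told. None of the 9 relations passed an adjusted p of 0.05 by r or rho, and 2 of them, with Jun and Fosl1, had an unadjusted exact permutation p under 0.05 by r.

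All 45 pairs were then compared, a step chosen after the data had been seen. Jun and Egr1 had an r of 0.90 (exact permutation p = 0.00556) and a rho of 0.96 (exact permutation p = 0.00278). Junb and Ier2 had an r of 0.88 (exact permutation p = 0.00536) and the same rho, and Jund and Ier2 an r of 0.95 (exact permutation p = 0.00357) and a rho of 0.86 (exact permutation p = 0.0238). Adjusted over 45 pairs, the smallest exact permutation p was 0.0833 by r and 0.0625 by rho. Without the 2 mice farthest from the median of the first gene, r was 0.94, 0.98 and 0.95. After removal of the GC trend, r was 0.93 for Jun and Egr1, 0.77 for Junb and Ier2, 0.69 for Jund and Ier2, and 0.32 in place of 0.75 for Junb and Jund.

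**Figure D5:**
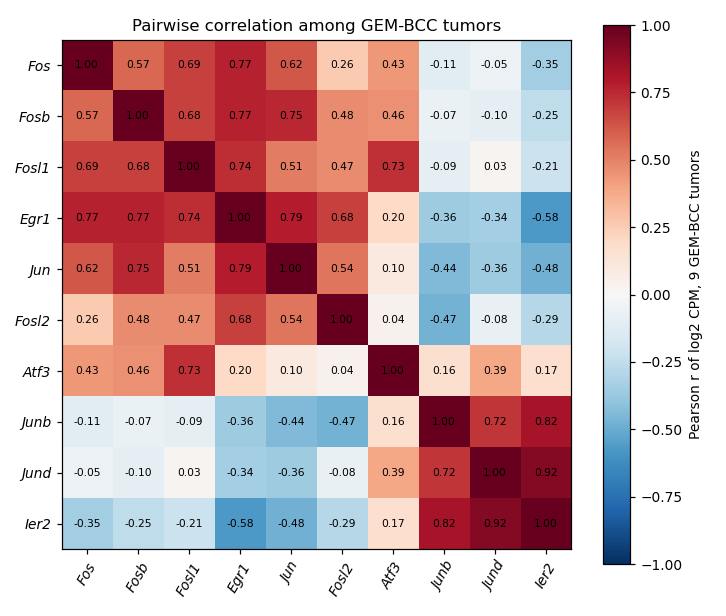
Pearson r of log2 CPM for each pair of the 10 genes over the 9 GEM-BCC tumors, printed in each square, from blue (-1) to red (1). Junb, Jund and Ier2 form a block with r of 0.72 to 0.92, and their r with Jun and Egr1 lies between -0.58 and -0.34. After removal of the GC trend, r over these tumors fell to 0.40 for Junb and Jund, to 0.67 for Junb and Ier2 and to 0.65 for Jund and Ier2. With Jun, r was then -0.06 for Jund, -0.34 for Junb and -0.53 for Ier2. With Egr1, it was 0.12 for Jund, -0.12 for Junb and -0.54 for Ier2. Tumors of 1 mouse are counted separately here, so these values are a description.

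Genes whose level was most like that of Fos over the 9 GEM-BCC tumors were sought among 10347 genes whose log2 CPM averaged 3 or more. The highest Pearson r was 0.93 for Sesn1, followed by Exo5, Ccdc3, Rpe, Trim2, Idh1, Col2a1, Insig2, Ripk2 and Suco, the last with an r of 0.87. No member was among these 10 genes. Egr1 was the 93rd gene in this order, with an r of 0.77. With 54 genes above an r of 0.8 in 9 tumors, the order is a description. After removal of the GC trend, r fell to 0.27 for Rpe and was at least 0.77 for the other 9.

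Of 61 other immediate early genes tested, 6 were higher and 4 lower in Tp-BCC tumors, and 51 did not pass (edgeR), with a median log2 fold change of 0.11. Over all tested genes 11.1% were higher and 8.35% lower, and the counts of this list are not read as different from these shares. Klf4, a transcription factor of epithelial differentiation, was higher by 1.57 ± 0.19 (SE, adjusted p = 5.7e-05, edgeR). Myc was higher by 1.79, the phosphatase gene Dusp4 by 0.94, Egr2 by 1.11 and the orphan nuclear receptor gene Nr4a2 by 2.77. Lower in Tp-BCC tumors were Mcl1, which codes for a survival protein (-0.59), the kinase gene Sgk1 (-1.24), Id2 (-1.22) and Dusp5 (-1.94). Id2 did not pass with the GC trend removed (-0.71, adjusted p = 0.0990, edgeR). Egr3, a relative of Egr1, had 172.1 ± 52.7 CPM (SD, n = 9) in GEM-BCC and 177.1 ± 34.4 CPM (SD, n = 4) in Tp-BCC tumors, and the RNA-binding protein genes Zfp36l1 and Zfp36l2 did not pass, at 0.11 and -0.30.

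Of 27 other genes of the basic leucine zipper class, to which Fos and Jun proteins belong, 5 were higher, 3 lower and 19 did not pass (edgeR), with a median log2 fold change of -0.04. The shares over all tested genes were 11.1% higher and 8.35% lower. Mafg, a small Maf protein without an activation domain, was higher by 2.27 ± 0.33 (SE, adjusted p = 0.000271, edgeR). Batf, Batf2 and Batf3, which pair with Jun proteins in immune cells, were higher by 1.32, 2.28 and 1.63 at mean levels of at most 5.41 CPM. Creb3, Crem and Mafa were lower, with log2 fold changes of -1.0, -1.10 and -1.58. When that trend was removed, Batf (adjusted p = 0.0968), Batf3 (0.0660) and Crem (0.0782) did not pass in edgeR. Atf4, Nfe2l1 and Atf7, the most abundant of those that did not pass, had log2 fold changes of 0.37, -0.09 and 0.10.

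Upstream of the immediate early genes lie the MAP kinases and the ternary complex factors that act with SRF. Of 39 such genes tested, 5 were higher, 3 lower and 31 did not pass (edgeR), with a median log2 fold change of 0.05. Among all tested genes 11.1% were higher and 8.35% lower. The kinase genes Rps6ka4, Rps6ka2 and Mapk11, the SRF coactivator gene Mrtfa and the ternary complex factor gene Elk3 were higher by 0.81 to 0.95. Lower were Mrtfb (-0.82), Elk4 (-1.48) and Map3k8 (-1.37). When the GC trend was removed, Mapk11 (0.52, adjusted p = 0.0940) and Elk4 (-1.18, adjusted p = 0.0635) did not pass in edgeR, and Rps6ka4 and Mrtfa were both at 0.49 and still passed. Mapk3 and Egfr did not pass, with log2 fold changes of 0.63 and -0.45.

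Of 31 genes listed as targets of AP-1, 2 were higher, 9 lower and 20 did not pass (edgeR), where 11.1% and 8.35% of all genes were higher and lower. Their median log2 fold change was -0.09, near that of all genes. With the GC trend removed, 3 were higher and 7 lower, where 15.1% and 13.3% of all genes were. Among the 9 lower, S100a8 and S100a9 had 3 counts or fewer in each Tp-BCC tumor. Neither passed with the GC trend removed (adjusted p = 0.0558 and 0.0959, edgeR). Ccnd1 (0.86), which codes for cyclin D1, and the integrin gene Itga5 (1.58) were higher. The matrix gene Tnc fell from 579 ± 476 CPM (SD, n = 9) in GEM-BCC to 17.3 ± 1.71 CPM (SD, n = 4) in Tp-BCC tumors, and the wound keratin genes Krt6a and Krt16 had log2 fold changes of -5.02 and -3.94. Sgk1 (-1.24) and Lgals3 (-1.99) were lower as well. Cd44 and Ezr, among the most abundant of the others, had -0.88 and 0.25 and did not pass. Of 9 markers of differentiated keratinocytes 2 were lower in Tp-BCC tumors, Dsg1a (-2.61) and Krt10 (-2.80), and their summed level was 150.3 to 702 CPM in GEM-BCC and 129.8 to 158.9 CPM in Tp-BCC tumors. The part of such cells in the fall of Krt6a, Krt16 and Tnc was not tested.

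The AP-1 element TGACTCA, searched on both strands, was present in 5.2% of 32851 mouse promoters of 300 bases in RefSeq (GRCm38.p6). Of the listed AP-1 targets, 31 had a promoter there, a set that is not the same as the 31 tested above. Counted by gene, 13 of them held the element within the 250 bases before the start in at least 1 promoter. That count is not on the same measure as the share of promoters. The element is shown in 2 target promoters, chosen after their values were seen as one gene that differed between models and one that did not. Each is the 250 bases before the start of transcription, with the element in capitals: Sprr1a, a cornified envelope gene, at chr3:92485882-92486131 (minus strand), and Mmp13, a collagenase gene, at chr9:7272264-7272513 (plus).
Sprr1a: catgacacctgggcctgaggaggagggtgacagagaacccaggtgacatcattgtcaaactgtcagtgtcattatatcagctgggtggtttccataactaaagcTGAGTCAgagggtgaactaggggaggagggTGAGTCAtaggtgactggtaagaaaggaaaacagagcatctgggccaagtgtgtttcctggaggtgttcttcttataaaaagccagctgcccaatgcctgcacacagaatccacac
Mmp13: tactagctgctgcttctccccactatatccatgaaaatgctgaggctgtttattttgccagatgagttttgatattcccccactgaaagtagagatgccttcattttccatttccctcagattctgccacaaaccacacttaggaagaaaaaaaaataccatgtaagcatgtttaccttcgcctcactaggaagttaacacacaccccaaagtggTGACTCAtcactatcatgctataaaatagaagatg
In Sprr1a the element reads TGAGTCA, its reverse complement, and begins 146 and 116 bases before the start. In Mmp13 it begins 35 bases before it. Sprr1a had 32.1 ± 45.4 CPM (SD, n = 9) in GEM-BCC and 0.777 ± 0.313 CPM (SD, n = 4) in Tp-BCC tumors (log2 fold change -5.37 ± 1.43, SE, adjusted p = 0.0174, edgeR). Mmp13 had 1.79 ± 2.26 and 2.02 ± 1.66 CPM (SD, n = 9 and 4) and a log2 fold change near 0, 0.17 ± 0.94 (SE, adjusted p = 0.917, edgeR). Of 545 tested genes with the element, 10.8% were higher and 9.91% lower in Tp-BCC tumors (edgeR), against 10.8% and 7.92% of 11441 tested genes with a promoter in the table. Of the 10 members, 7 had a promoter there, and none of these held TGACTCA or TGACGTCA, the related cyclic AMP response element.

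Genes known to be induced by heat, protein damage or tissue handling were read beside the members. Of 18 tested, 1 was higher, 2 lower and 15 did not pass (edgeR), where 11.1% and 8.35% of all genes were higher and lower. Their summed level was 7016 to 8343 CPM in GEM-BCC and 9782 to 10564 CPM in Tp-BCC tumors. These ranges did not overlap, with Tp-BCC higher, and no test was made on the sum. The chaperone gene Hsp90ab1 was higher by 0.77 and Hspb8 lower (-2.01). Hspa1a was lower (-4.06), but it is nearly identical to Hspa1b, and the sum of both was 296 ± 60.7 CPM (SD, n = 9) in GEM-BCC and 329 ± 120.3 CPM (SD, n = 4) in Tp-BCC tumors. Ubb and Hspa8 had log2 fold changes of 0.42 and 0.18 and did not pass. Of 21 genes of the integrated stress response, which includes Atf3, 1 passed, Shmt2, a mitochondrial enzyme of serine metabolism, higher by 1.3 on the log2 scale. Of 14 hypoxia genes 3 were lower, Pgk1 (-0.86), P4ha1 (-0.85) and Egln3 (-1.78), of which P4ha1 did not pass with the GC trend removed (-0.52, adjusted p = 0.0667, edgeR). The part of handling in the values of the 10 members was not tested.

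Markers of other cell types moved between models as well, where 11.1% of all tested genes were higher and 8.35% lower in Tp-BCC tumors. Of 8 endothelial markers 4 were higher in Tp-BCC tumors (Cdh5, Tie1, Kdr and Emcn, by 1.11 to 1.65), and their summed level was 95.9 to 255 CPM in GEM-BCC and 346 to 413 CPM in Tp-BCC tumors. Of 10 macrophage markers Cd68 was higher (1.31), with sums of 89.7 to 293 and 219 to 318 CPM. Of 8 fibroblast markers 3 were higher (Pdgfra 2.14, Fn1 3.17 and Pdgfrb 1.25) and Col1a1 lower (-1.12), with sums of 12203 to 49258 and 16772 to 30142 CPM. Of 5 adipocyte markers tested, 3 were higher, among them Fabp4 (3.83) and Adipoq (3.66), and Cidea was lower, with sums of 10.6 to 29.9 and 20.8 to 96.6 CPM. Of 4 neutrophil markers tested 2 were lower, S100a8 and S100a9, at 3 counts or fewer in each Tp-BCC tumor and both lost with the GC trend removed, and the list summed to 0.989 to 8.49 and 1.22 to 2.57 CPM. Of 3 blood markers tested 2 were lower, with sums of 30.6 to 319.9 and 38.9 to 116.9 CPM. Skeletal muscle markers summed to 4.04 to 8.98 and 3.36 to 134.1 CPM, and T cell markers to 5.54 to 15.2 and 5.27 to 12.6 CPM. No marker of these lists was at 0 in every tumor. The endothelial sum was the one among these lists whose models did not overlap, and the part of any of these cells in the level of Ier2 or the other members was not tested.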

How the data were processed

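Values are RSEM expected counts per gene, as deposited by the authors, neither rounded nor normalized. Per the labels and methods, the authors used Bowtie2 2.3.4.3 and RSEM 1.3.1 on GRCm39, with strand taken into account. After rounding, edgeR 4.0.16 in R 4.3.3 tested each gene that no tumor lacked and that reached 10 counts in 4 tumors or more (TMM, quasi-likelihood F test, robust dispersions, no covariate), with Benjamini-Hochberg adjustment over all tested genes. CPM use TMM-scaled library sizes, and log2 CPM a prior count of 2. The SE is the size of the log2 fold change divided by the square root of F. Replicates are separate tumors, and p-values measure the spread between these tumors. They do not measure spread between transplant lines, since the Tp-BCC tumors are repeats of 1 line. The fit also counts GEM-BCC tumors of 1 mouse separately. With counts summed per mouse, Ier2 had a log2 fold change of 1.0 (adjusted p = 0.0276, edgeR) and Atf3 of -1.69 (adjusted p = 0.0768, edgeR), and 1 member passed.

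The GC trend was a lowess curve (span 0.3) of the log2 CPM of a tumor, less the mean of the gene, against the median GC content of coding transcripts in GENCODE vM21 (GRCm38, matched by symbol; 98.3% of tested genes), removed as an offset. Correlations used means per mouse and all 5040 orders of 7 mice, so that the smallest possible p is 0.000397. Members and lists were chosen with earlier results of these data known. Named were all members, and from lists the up to 5 most abundant genes past the threshold per direction and the 3 most abundant others, with marker lists given mostly as counts and sums. Some genes that this rule names are not reported here. DESeq2 1.42.0 and the other alternatives are given at the end. The test was checked on simulated counts.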

Additional observations from a re-analysis of the deposited data

How the results depend on the processing

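Ier2 was past an adjusted p of 0.05 in 28 of 32 settings and always higher in Tp-BCC tumors. Leaving out 1 tumor gave 0 to 1 members past the threshold in edgeR, the 0 without TP2 and without TP4, where 1 and 6 members had an unadjusted p under 0.05. Over all tested genes, 10.8% (without TP2) to 21.1% (without GEM3) passed when 1 tumor was left out, and 12.8% without TP4. Counts of members past it were 2 in DESeq2 (Ier2 and Atf3), 3 with the GC trend removed and, among settings chosen after seeing the data, 3 with GC and length trends removed (Ier2, Jun, Jund), 2 without TP1 and TP3 (Ier2 and Junb, 0.83, adjusted p = 0.0107, edgeR) and 1 without TP2 and TP4 (Jund, -0.99, adjusted p = 0.0227, edgeR). Of all tested genes, 26% passed in DESeq2, 28.3% with the GC trend removed and 31.7% with GC and length trends removed. The share was 42.9% without TP1 and TP3 and 10.4% without TP2 and TP4, and the counts of members are not read as different from these shares. On the scale without the GC trend the count was 4 without GEM1, 3 without TP4 and 1 without TP1, TP2 or TP3. There 28.9%, 18.6%, 23.4%, 19% and 26.7% of all tested genes passed, in the same order. The median SD of the members in Tp-BCC was 0.27 with the GC trend removed in place of 0.58.

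Some log2 fold changes turned sign. Fosl2, 0.11 as reported, was -0.011 with library size alone and -0.018 with the GC trend removed. Leaving out 1 tumor, it ranged from -0.095 (without TP4) to 0.24 and was also below 0 without TP2 (-0.060) and GEM3 (-0.020), and it was -0.37 without TP2 and TP4. With the GC trend removed it was -0.016 without GEM1, -0.066 without TP2 and -0.13 without TP4. Fosl1 was 0.31 without TP1 and TP3, and -1.12 to 0.047 leaving out 1 tumor, the latter without TP3. Jund was 0.38 without TP1 and TP3, and -0.68 to 0.050 leaving out 1 tumor, above 0 without TP1 or TP3. Fosb was 0.076 without TP1 and TP3. Junb was -0.31 without TP2 and TP4, -0.026 with GC and length trends removed, and, with the GC trend removed, -0.029 without TP2 and -0.0022 without TP4. With the GC trend removed, r of Fos was 0.13 with Junb and 0.0023 with Ier2, and over 9 tumors it was -0.055 with Jund. Causes were not tested.

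The tumor numbers 1 to 4 occur in both models but come from different mice, and deviations of same-numbered tumors had correlations of -0.38, -0.12, -0.10 and -0.18. With the number as a replicate block, 0 members passed (0 also at an unadjusted p under 0.05), Ier2 was at 0.92 (adjusted p = 0.479, edgeR) and Fosl1 at 0.40, and 178 genes in all passed in place of 2792. All genes passing numbered 3743 in DESeq2 and 4078 with the GC trend removed. Other scalings moved the median log2 fold change of all genes to at most -0.09. Depth limits Fosl1 most, at 2 to 45 counts in a tumor.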
